A study of Mus musculus with 3 samples.

Results

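Metalloproteinase genes of the Mmp, Adam and Adamts families, with 3 of their Timp inhibitors, were examined in mouse retina. Members were every gene whose symbol was Mmp, Adam or Adamts with a number (and, for Mmp and Adam, at most 1 further letter), or Timp2, Timp3 or Timp4, and that had a probe set assigned to that symbol alone. This gave 76 of the 22180 genes with values: 22 Mmp, 33 Adam, 18 Adamts and 3 Timp genes. RefSeq symbols that fit the same pattern number 79, and Adam34, Adamts2 and Mmp15 were not analysed here. Timp1 lies outside that pattern and was not examined.

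The study placed agents related to caveolin-1, the coat protein of caveolae, into the vitreous of C57 mice and measured retinal RNA on Affymetrix whole-transcript arrays. The AP control group received AP and was taken at 2 hr, the cavtratin group received cavtratin, a cell-permeable peptide with the scaffolding domain of caveolin-1, and was also taken at 2 hr, and the Cav1-shRNA group received Cav1-shRNA, which the name gives as a short hairpin RNA against Cav1, and was taken after 2 days. The labels do not spell out AP, and no source used here gives the age or sex of the mice. Each group was 1 array of 5 to 6 pooled retinae. There were therefore no replicates, no test could be run, and every difference compares 2 arrays and not the conditions. The Cav1-shRNA array differs from AP control both in agent and in time after injection, and these cannot be told apart.

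Matrix metalloproteinases (Mmp) are zinc enzymes that cut collagens, laminins and other matrix proteins, and most are made as inactive precursors. Adam proteins sit in the cell membrane, where those with an active site release the outer parts of receptors, cytokines and adhesion molecules, and Adamts proteins are secreted relatives that cut proteoglycans, procollagens and von Willebrand factor. Timps bind and block the active sites. In the retina these enzymes are known for remodelling of the vitreal and vascular matrix, for entry of leukocytes across vessel walls, and, for ADAM9 and TIMP3, for inherited retinal disease in humans.

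Values are the deposited ones, read as log2 expression per probe set, so a difference of 1 is 2-fold. An expression floor of 6.50 was used, the median of the mean value over all probe sets with 1 gene symbol. A gene was counted as 2-fold apart when its difference was at least 1 in size and the higher of both arrays reached the floor. Values of different probe sets are not on a common scale of amount, so no order of levels between genes was read.

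Array medians lay between 6.01 and 6.07. The targeted gene Cav1 was at 8.26 in all 3 arrays, so the array labelled Cav1-shRNA did not have a lower Cav1 value than the others, and that name stands below for the array so labelled. Markers of retina were present, with all 7 measured rod genes, all 6 cone genes and all 8 Müller glia genes above the floor in every array. The cavtratin array also had higher values than AP control for 11 of 13 lens markers, with 1 lower and 1 equal. The summed linear level of the 13 was 10723 there, against 2774 in AP control and 2730 in Cav1-shRNA. The largest differences were those of the crystallins Cryba1, Cryaa and Crygs, 3.08, 2.83 and 2.77 above AP control. Mip was at 6.80, 6.74 and 6.76 in AP control, cavtratin and Cav1-shRNA, and Lim2 at 5.59 in all 3. In 40 of the 76 members (52.6%), and in 50.1% of all genes, the 3 arrays held the same value (within 1e-09), and an equal value is not a measurement that a gene did not change.

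Promoter windows are shown first for the members with the largest differences, Mmp8, Adam8 and Adamts1, and for 3 neighbours of Mmp8. Windows come from RefSeq, build GRCm38.p6, and run from 250 bases before to 49 bases after the first transcribed base, which counts as 0. The neighbours are shown from −100 to 19. Each is printed 5′ to 3′ on the strand of its gene, and capitals mark matches to the AP-1 letters TGANTCA or the TATA letters TATAAA, searched on both strands.
Mmp8, chr9:7558179-7558478, + strand: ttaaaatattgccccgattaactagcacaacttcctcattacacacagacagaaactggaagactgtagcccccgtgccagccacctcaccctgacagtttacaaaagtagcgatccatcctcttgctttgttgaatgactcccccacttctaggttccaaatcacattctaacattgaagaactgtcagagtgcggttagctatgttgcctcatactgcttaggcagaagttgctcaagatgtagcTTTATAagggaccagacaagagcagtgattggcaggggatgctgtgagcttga
Adam8, chr7:139992513-139992812, − strand: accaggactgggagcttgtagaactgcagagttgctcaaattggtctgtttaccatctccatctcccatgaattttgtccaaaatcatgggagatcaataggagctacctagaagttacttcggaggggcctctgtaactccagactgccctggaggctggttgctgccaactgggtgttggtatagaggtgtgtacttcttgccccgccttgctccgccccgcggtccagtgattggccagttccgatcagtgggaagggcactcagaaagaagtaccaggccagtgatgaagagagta
Adamts1, chr16:85803064-85803363, − strand: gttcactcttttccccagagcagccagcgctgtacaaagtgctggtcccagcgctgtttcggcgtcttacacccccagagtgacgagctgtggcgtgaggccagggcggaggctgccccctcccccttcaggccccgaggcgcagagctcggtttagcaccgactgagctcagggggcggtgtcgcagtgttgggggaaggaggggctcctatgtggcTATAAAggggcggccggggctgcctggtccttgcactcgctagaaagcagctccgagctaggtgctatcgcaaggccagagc
Mmp13, chr9:7272414-7272533, + strand: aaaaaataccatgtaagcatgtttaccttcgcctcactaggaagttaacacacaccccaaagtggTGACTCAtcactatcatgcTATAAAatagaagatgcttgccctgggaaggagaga
Mmp3, chr9:7445722-7445841, + strand: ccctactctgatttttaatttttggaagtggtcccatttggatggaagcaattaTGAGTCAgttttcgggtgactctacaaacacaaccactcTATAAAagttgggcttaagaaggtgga
Mmp10, chr9:7502242-7502361, + strand: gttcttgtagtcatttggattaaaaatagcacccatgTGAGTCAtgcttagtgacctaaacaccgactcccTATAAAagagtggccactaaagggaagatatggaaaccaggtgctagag

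The Mmp8 window held the TATA letters once, as the complement TTTATA from −3 to 2, and no AP-1 letters. The Adam8 window held neither. The Adamts1 window held TATAAA from −32 to −27. The Mmp13, Mmp3 and Mmp10 windows each held both motifs, with the AP-1 letters at −35 to −29, −46 to −40 and −63 to −57. A match of letters is a description and not evidence of binding, and its absence says only that the letters are not in this window.

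Windows were given for 46 members, 51 windows in all. The AP-1 letters were found in 13 of the 51 (25.5%), against 7.81% of all 32851 windows, and TATAAA in 15 (29.4%), against 13.6%. The letters TGACGTCA of a cyclic AMP response element were found in 0 of the 51, against 1.79% of all windows, and the letters of an NF-kB site, GGG, any 2 bases and then TTTCC, also in 0, against 1.63%. Most AP-1 matches lay in 1 stretch of chromosome 9, where 10 Mmp genes follow one another with no other protein-coding gene of the RefSeq table between them. Of these 10 genes, 8 had the AP-1 letters and 9 had TATAAA in a window, with Mmp8 and Mmp27 lacking the first and Mmp27 the second. Outside that stretch 5 of 39 member windows held the AP-1 letters and 6 held TATAAA. The 10 genes share ancestry and position, so they are not separate observations.

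Across all 76 members, few differed by much. Mmp8, the neutrophil collagenase, and Adam8, a leukocyte surface protease, were at least 2-fold higher in the cavtratin array than in AP control, and no member was 2-fold lower. Adamts1 and Adamts4, which cut aggrecan and versican, were 1.69- to 1.98-fold lower than AP control in both other arrays. Mmp9, the gelatinase of neutrophil granules, was 1.66-fold higher in cavtratin. Adam9 and Adam10 had equal values in all 3 arrays, and the 3 Timp genes examined differed by at most 0.22.

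Cavtratin was set against AP control to ask what the scaffolding peptide changes at 2 hr. At least 2-fold higher were 2 of the 76 members, 26 of which reached the floor in 1 or both arrays, beside 1.36% of 11477 genes that reached it. At least 2-fold lower were 0, beside 0.0958% of genes. At 1.5-fold, 3 members were higher, Mmp8, Adam8 and Mmp9, beside 2.19% of genes, and 2 were lower, Adamts1 and Adamts4, beside 0.235%. Mmp8 and Adam8 reached the floor in cavtratin and not in AP control, and with the floor raised to the 75th percentile, 8.20, the count was 0. Of the genes past the 2-fold limit, Adam8 at 1.41 was the nearer to it. Of those short of it, Mmp9 at 0.74 was nearest on the higher side and Adamts1 at −0.89 on the lower. The median difference was 0 over the 76 members and 0 over all genes, with 15 members above 0, 18 below and 43 equal. With 43 of 76 members and 13657 of 22180 genes equal, both medians had to be 0.

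Cav1-shRNA was set against AP control to ask what the hairpin changes, with the difference in time included. Here 0 members were at least 2-fold higher, beside 0.341% of 11433 genes, and 0 were at least 2-fold lower, beside 0.122%. At 1.5-fold 1 member was higher, Adam8, beside 0.901% of genes, and 3 were lower, Adamts1, Adamts4 and Adam1a, beside 0.367%. Of members at the floor, Adamts1 at −0.98 was nearest to 2-fold on the lower side. On the higher side it was Adam8 at 0.64, 1.56-fold. Mmp8 was 0.95 higher, but it lay below the floor in both arrays. The median was 0 over members and over all genes, with 13 members above 0, 17 below and 46 equal. Here too the equal values, 46 of 76 members and 13109 of 22180 genes, set both medians.

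Between Cav1-shRNA and cavtratin, a comparison that leaves out AP control, 0 members were 2-fold higher in Cav1-shRNA, beside 0.0349% of 11472 genes, and 0 were 2-fold lower, beside 0.785%. At 1.5-fold 0 were higher, beside 0.0959%, and 2 were lower, Mmp8 at −0.91 and Adam8 at −0.77, beside 1.53%. Mmp3 was 0.97 lower in Cav1-shRNA, with both values below the floor. The largest difference on the higher side was that of Adamts5, 0.28 or 1.22-fold, well short of 2-fold.

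**Figure D1:**
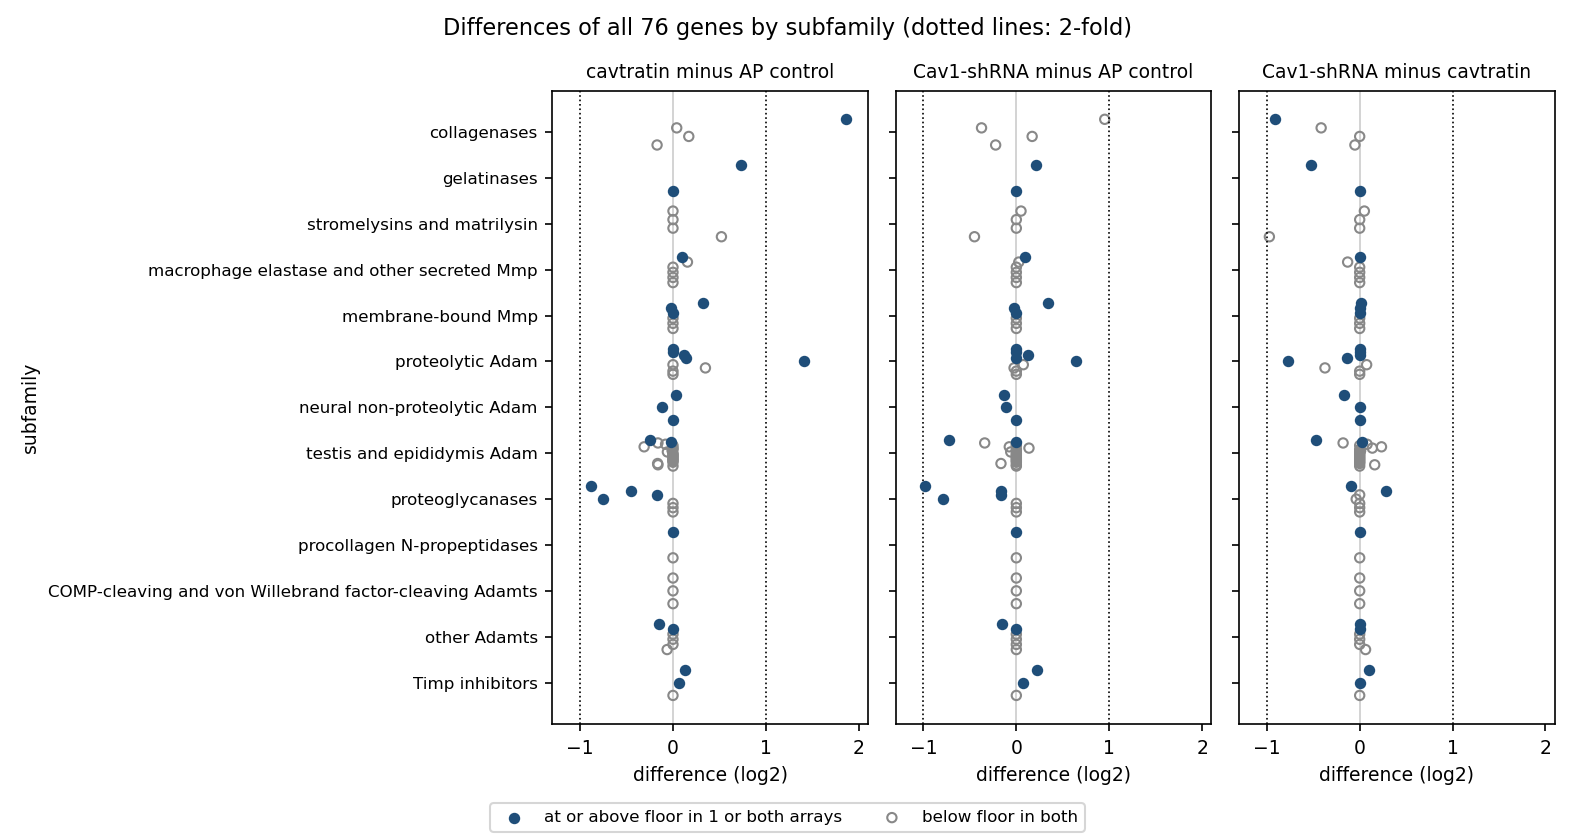
Difference of each of the 76 genes in the 3 comparisons (x axis, log2; y axis, subfamily), each point 1 gene, filled where the higher of both arrays reached the floor of 6.50, with dotted lines at 2-fold. Only Mmp8 (1.86) and Adam8 (1.41) lie past a dotted line, both in cavtratin minus AP control, while the lower points of the proteoglycanases are Adamts1 and Adamts4.

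Counted by size with no floor, 6 of the 76 members (7.89%) differed by at least 0.5 between cavtratin and AP control, against 1.91% of all genes. Between Cav1-shRNA and AP control these were 5 members (6.58%) against 1.33%, and between Cav1-shRNA and cavtratin 4 (5.26%) against 1.39%. In each comparison 1 of these genes lay below the floor in both arrays, Mmp3 in the first and the third and Mmp8 in the second. Of the members 34.2% reached the floor in any array, against 51.9% of all genes, so the 2 sets differ in their share of low values.

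**Figure D2:**
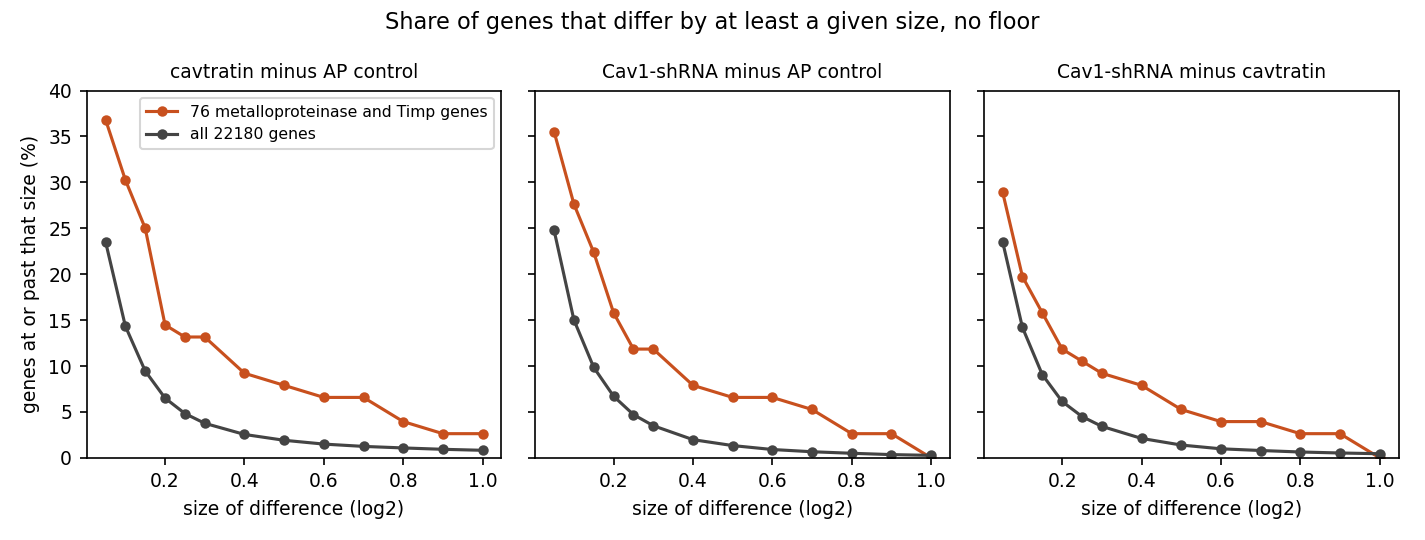
Share of genes (y axis, percent) whose difference is at least a given size in either direction (x axis, log2) for the 76 members and for all 22180 genes, without a floor, in the 3 comparisons. In cavtratin minus AP control 30.3% of members and 14.3% of all genes differ by at least 0.1, and at a size of 1 the shares are 2.63% and 0.821%. Values below the floor are more common among the members than among all genes.

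Among the collagenases, which cut fibrillar collagen, Mmp8 varied most of all 76 genes. Mmp8 was at 5.19 in AP control, 7.05 in cavtratin and 6.14 in Cav1-shRNA. The cavtratin value alone reached the floor, and it was 3.64-fold above AP control, a difference of 1.86. Mmp8 held rank 66 of 11477 among positive differences in that comparison. Mmp13, collagenase 3, was at 4.37, 4.41 and 3.999 in AP control, cavtratin and Cav1-shRNA. Mmp1a and Mmp1b, rodent counterparts of interstitial collagenase, lay between 2.56 and 2.78 in every array. These last 3 genes were thus below the floor throughout.

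Both gelatinases, which cut denatured collagen and basement membrane collagen, were above the floor. Mmp9 was at 7.19 in AP control, 7.92 in cavtratin and 7.39 in Cav1-shRNA, highest in cavtratin by 0.74 over AP control and by 0.53 over Cav1-shRNA. Mmp2, made by many resident cells, had 1 value, 6.51, in all 3 arrays. Of both gelatinases, then, Mmp9 had values that differed between arrays, and the equal values of Mmp2 do not show a lack of change.

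Stromelysins, with broad matrix substrates, and matrilysin were below the floor in every array. Mmp3, stromelysin 1, was at 5.11 in AP control, 5.63 in cavtratin and 4.66 in Cav1-shRNA, and so lay above AP control in one array and below it in the other. Mmp10, stromelysin 2, was at 5.37, and Mmp7, matrilysin, at 5.65 in all 3. Mmp11, stromelysin 3, was at 5.99 in Cav1-shRNA and at 5.94 in the other arrays. No order was read from values under the floor.

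Of the other secreted Mmps only Mmp12, the macrophage elastase, reached the floor, at 6.59 in AP control and 6.68 in cavtratin and Cav1-shRNA. Mmp19 was at 5.90, 6.06 and 5.93 in AP control, cavtratin and Cav1-shRNA. Mmp20, the enamel protease, Mmp21, Mmp27 and Mmp28, epilysin, had equal values in all 3 arrays, between 4.09 and 5.53.

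Among the membrane-bound Mmps, Mmp14, which activates the Mmp2 precursor at the cell surface, was the 1 gene with a visible difference. Mmp14 was at 7.67 in AP control, 7.999 in cavtratin and 8.02 in Cav1-shRNA, higher by 0.33 and 0.34 than AP control and short of 1.5-fold. Mmp24, a form of neural tissue, was at 7.28 in AP control and 7.26 in the other arrays. Mmp16 was at 6.88 and, below the floor, Mmp17 at 6.48, Mmp23 at 5.88 and Mmp25, a leukocyte form, at 5.78 in all 3. Mmp2, the substrate of Mmp14, was equal in all arrays, as given above.

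The stretch of Mmp genes on chromosome 9 runs, in RefSeq order, Mmp13, Mmp12, Mmp1b, Mmp3, Mmp1a, Mmp10, Mmp8, Mmp27, Mmp20 and Mmp7. Mmp8 was the gene of largest range there, 1.86, while its direct neighbours Mmp10 and Mmp27 had equal values in all 3 arrays. Mmp20 and Mmp7 were equal too. At the other end Mmp3 had a range of 0.97, Mmp13 of 0.41 and Mmp1b of 0.22, all below the floor.

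**Figure D3:**
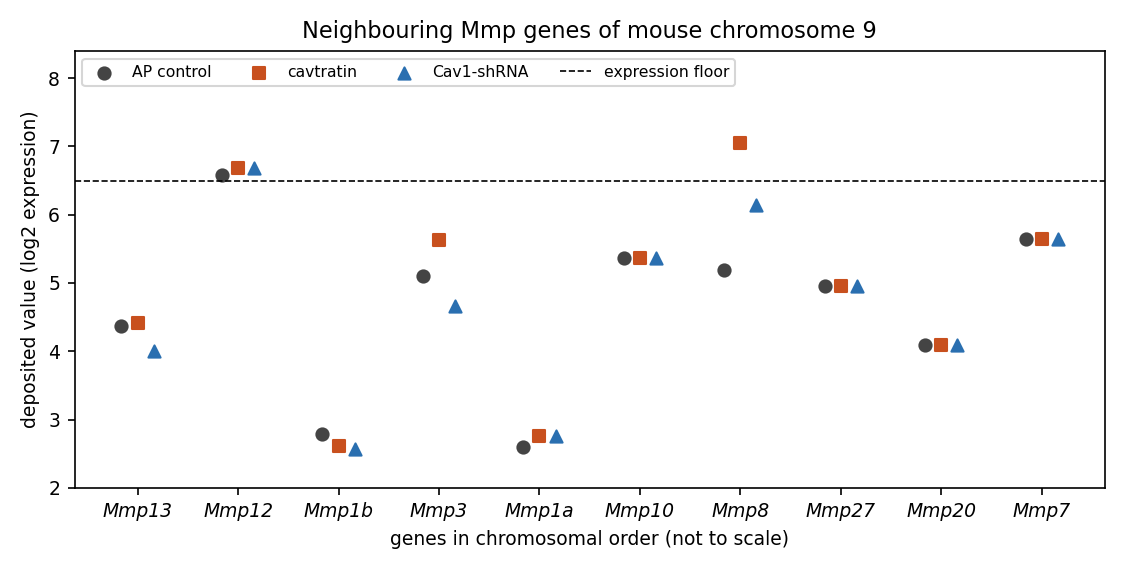
Deposited value (y axis, log2 expression) of the 10 neighbouring Mmp genes of chromosome 9 in gene order (x axis, not to scale), 1 point per array, with the floor of 6.50 as a dashed line. Mmp8 is the gene whose points lie farthest apart, at 5.19, 6.14 and 7.05, beside equal points for Mmp10 and Mmp27.

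The Adam genes with proteolytic activity held the shedding enzymes of widest use, and their values were equal or differed by little. Adam10, which cuts Notch receptors and the amyloid precursor protein, was at 9.17 and Adam9, a shedding enzyme of photoreceptors and pigment epithelium, at 10.08 in all 3 arrays. Adam17, which releases tumor necrosis factor, was at 7.77 in AP control and Cav1-shRNA and at 7.91 in cavtratin. Adam15 was at 8.19 in AP control and 8.31 in the other arrays, while its second probe set was at 6.67 in all 3.

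Adam8 was the exception among them. It was at 6.41 in AP control, 7.82 in cavtratin and 7.05 in Cav1-shRNA, so that AP control alone lay below the floor. The difference from AP control was 1.41 in cavtratin, or 2.66-fold, and 0.64 in Cav1-shRNA, or 1.56-fold. Counted from the largest positive difference, these held ranks 101 and 86 among the 11477 and 11433 genes that reached the floor. Cav1-shRNA lay between AP control and cavtratin, as for Mmp8 and Mmp9. Each comparison with AP control uses the same array, so these are not independent.

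The other proteolytic Adam genes were below the floor. Adam19, meltrin beta, was at 5.65, 5.99 and 5.62 in AP control, cavtratin and Cav1-shRNA, while its second probe set was at 3.68 in all 3. Adam12, meltrin alpha, was at 6.06 in Cav1-shRNA and 5.99 in the other arrays. Adam28 and Adam33 were equal in all 3 arrays at 4.61 and 5.49.

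The summed level of leukocyte markers, though not each marker, stood in the same order of arrays as Mmp8, Adam8 and Mmp9. Of 16 markers of neutrophils and monocytes 15 were measured, with a summed linear level of 2708 in AP control, 5563 in cavtratin and 3526 in Cav1-shRNA. Without Lcn2, which gave most of that sum and is made by other cells too, these were 764, 2623 and 1233, a choice made after the values were seen. In the comparisons of cavtratin and Cav1-shRNA with AP control, 8 and 6 of the 15 reached the floor. The list had 6 genes at least 2-fold higher in cavtratin and 3 in Cav1-shRNA, the latter S100a8, Fpr2 and Ly6c2. Of all genes at the floor, 1.36% and 0.341% were that much higher. Ly6c2, a monocyte marker, went another way, at 6.59 in AP control, 6.16 in cavtratin and 8.08 in Cav1-shRNA. Over the list 9 of 15 genes were lower in Cav1-shRNA than in cavtratin, 2 were higher and 4 were equal. The defining neutrophil marker Ly6g was at 4.92 in AP control, 5.47 in cavtratin and 4.94 in Cav1-shRNA, under the floor throughout, as were the granule genes Mpo, Elane, Ngp, Camp and Ltf in every array. No marker was listed at 0.

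Markers of microglia and macrophages followed that order in their sum but not gene by gene. Of 17 markers 16 were measured, with a summed linear level of 3025 in AP control, 6614 in cavtratin and 4887 in Cav1-shRNA. In each comparison with AP control 14 reached the floor. At least 2-fold higher were 7 in cavtratin and 3 in Cav1-shRNA, beside 1.36% and 0.341% of all genes at the floor. Between Cav1-shRNA and cavtratin 6 of the 16 were higher in Cav1-shRNA, 8 were lower and 2 were equal. The complement gene C1qb was at 8.63, 8.54 and 9.05 in AP control, cavtratin and Cav1-shRNA, and C1qa, C1qc, Ctss, Cx3cr1 and Aif1 were also highest in Cav1-shRNA. P2ry12 and Tmem119, which mark resident microglia, differed by at most 0.0034. P2ry12 held 1 value, 6.87, in all 3 arrays, which does not show a lack of change, and Tmem119 was under the floor at 5.89. The part of leukocytes, and of what raised the lens markers in cavtratin, in the values of Mmp8, Adam8 and Mmp9 was not tested. In pooled tissue more cells of a type and more RNA per cell cannot be told apart.

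The neural Adam genes, which lack a working active site and bind Lgi proteins or mediate adhesion, were all 3 above the floor. Adam22 was at 8.42 in AP control and 8.30 in the other arrays. Adam23 was at 8.79 in AP control, 8.83 in cavtratin and 8.66 in Cav1-shRNA. Adam11 was at 7.18 in all 3. The largest of these differences, between Cav1-shRNA and cavtratin for Adam23, was 0.16.

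Adam genes known mainly from testis and epididymis were mostly at low values. Of 21, 19 were below the floor in every array, and 11 had equal values in all 3. Over the list 0 were above AP control in cavtratin and 9 were below, with 12 equal, beside 3879, 4644 and 13657 of all 22180 genes. In Cav1-shRNA 1 was above, 5 were below and 15 were equal, beside 4973, 4098 and 13109 of all genes. Adam1a was the exception, at 7.28 in AP control, 7.03 in cavtratin and 6.55 in Cav1-shRNA. It was lower by 0.72 in Cav1-shRNA, past 1.5-fold, and by 0.25 in cavtratin. Its neighbour Adam1b had values of 4.08 to 4.09, under the floor.

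Adam32 was the other gene of that list at the floor, at 6.56, 6.54 and 6.56 in AP control, cavtratin and Cav1-shRNA. Adam4 was at 5.76, 5.603 and 5.42 and Adam34l at 4.62, 4.31 and 4.55 in the same order. Adam24, Adam25 and Adam26a had ranges between 0.14 and 0.17 at values of at most 4.49, and Adam3 and Adam21 had ranges of 0.06 and 0.08. Adam2, Adam5, Adam6a, Adam6b, Adam7, Adam18, Adam20, Adam26b, Adam29, Adam30 and Adam39 were equal in all 3 arrays. Differences of 0.1 to 0.3 thus occurred also in genes with values far below the floor.

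Adamts genes that differed from AP control were lower. Of 18, 0 were above AP control in cavtratin, 6 were below and 12 were equal, and in Cav1-shRNA 0 were above, 5 below and 13 equal. Over all 22180 genes 3879 were above, 4644 below and 13657 equal in cavtratin, and 4973 were above, 4098 below and 13109 equal in Cav1-shRNA. Both comparisons share the AP control array. The lower genes were led by the proteoglycanases, which cut aggrecan, versican and related proteoglycans of the vitreal and neural matrix.

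Adamts1, first known as a gene induced in inflammation, was at 9.36 in AP control, 8.48 in cavtratin and 8.38 in Cav1-shRNA. AP control stood above both other arrays, which lay within 0.10 of each other. The difference was −0.89 in cavtratin, 1.85-fold lower, and −0.98 in Cav1-shRNA, 1.98-fold lower. These were the 18th lowest of 11477 and the 15th lowest of 11433 genes. All 3 values were far above the floor.

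Adamts4, aggrecanase 1, was at 6.52 in AP control, 5.76 in cavtratin and 5.72 in Cav1-shRNA. Of these AP control reached the floor, and only just, so the count of Adamts4 at 1.5-fold rests on where the floor lies. The differences were −0.76 and −0.79, at 1.69-fold and 1.73-fold lower. As for Adamts1, cavtratin and Cav1-shRNA were close to each other.

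Adamts5, aggrecanase 2 and the neighbour of Adamts1 on chromosome 16, was at 8.93 in AP control, 8.48 in cavtratin and 8.77 in Cav1-shRNA. Here cavtratin was lowest, 0.45 below AP control, while Cav1-shRNA was 0.17 below. Adamts9 was at 6.59 in AP control and 6.42 in both other arrays. Adamts8, Adamts15 and Adamts20 were below the floor and equal in all arrays at 5.37, 5.38 and 4.73. In all, 4 of the 7 proteoglycanases were lower than AP control in both arrays, with a list median of −0.17 in each comparison. The median of 0 for all genes was set by equal values, as given above. Of 6 fibroblast markers 5 were below the floor and equal in all 3 arrays, and the other was Dcn, so their summed linear level of 415 in AP control, 472 in cavtratin and 451 in Cav1-shRNA moved through Dcn alone. The summed level of 10 endothelial and pericyte markers was 2910, 3168 and 3330 in the same order. The part of these cells in the Adamts values was not tested.

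**Figure D4:**
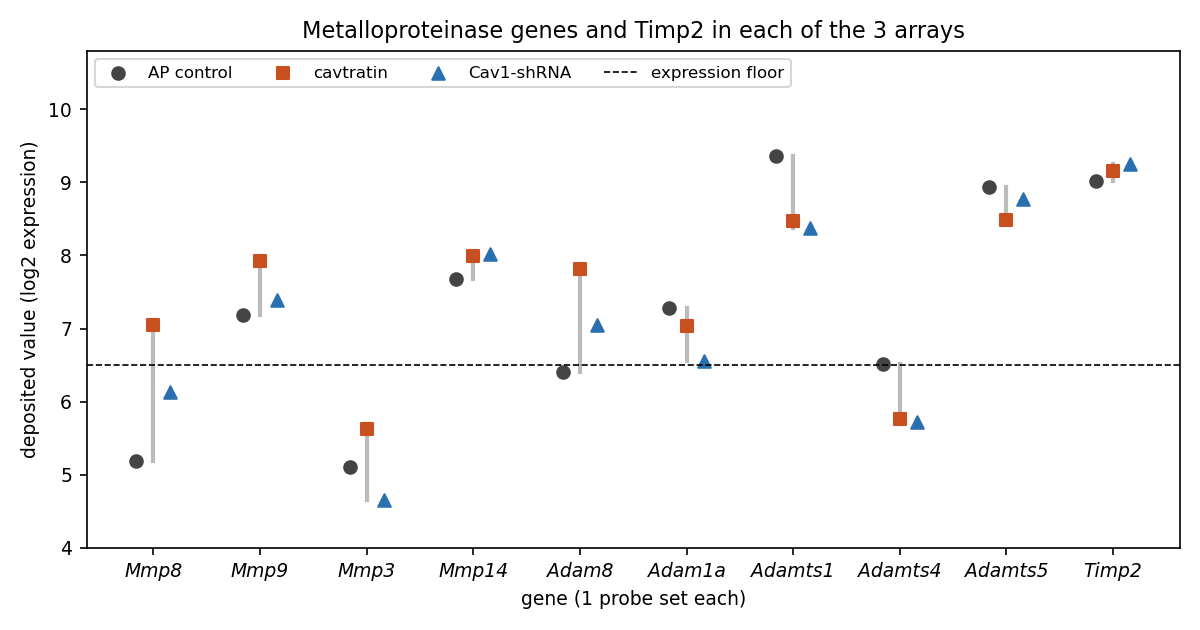
Deposited value (y axis, log2 expression) of 10 genes (x axis) in AP control, cavtratin and Cav1-shRNA, 1 point per array with no error since each group is 1 array, and a bar over the range. Mmp8, Mmp9 and Adam8 are highest in cavtratin and lowest in AP control, while AP control is highest for Adamts1 (9.36), Adamts4 (6.52) and Adamts5 (8.93).

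The other Adamts genes showed next to no difference. Adamts3, a procollagen N-propeptidase that also activates vascular growth factor C, was at 9.31 and Adamts14, of the same group, at 6.06 in all arrays. Adamts7 at 5.41 and Adamts12 at 5.19, which cut cartilage oligomeric matrix protein, and Adamts13 at 5.31, which cuts von Willebrand factor, were below the floor and equal. Adamts10, known for its part in fibrillin microfibrils and ocular disease, was at 6.86 in AP control and 6.70 in the other arrays. Adamts18, linked to eye development, was at 6.53 in all 3. Adamts6, Adamts16 and Adamts17 were equal at 6.18, 6.14 and 5.99, and Adamts19 was at 5.92, 5.85 and 5.92 in AP control, cavtratin and Cav1-shRNA.

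The 3 Timp inhibitors examined differed little, with higher values of Timp2 and Timp3 in cavtratin and Cav1-shRNA. Timp2, which also helps Mmp14 to activate Mmp2, was at 9.02 in AP control, 9.15 in cavtratin and 9.25 in Cav1-shRNA. Timp3, which is bound in matrix and inhibits Adam and Adamts enzymes too, was at 8.62 in AP control and 8.69 in the other arrays. Timp4 was at 5.08 in all 3, below the floor. The largest of these differences was 0.22, that of Timp2 in Cav1-shRNA.

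As a measure of spread between probe sets, 6 members had 2 probe sets, and none of them was past 1.5-fold. This was read in 271 genes with more than 1 probe set whose mean over the 3 arrays reached the floor. The SD of the difference between probe sets of 1 gene was 0.12 for cavtratin against AP control. It was 0.088 for Cav1-shRNA against AP control and 0.11 for the third comparison. Of all genes at the floor 43.2% held equal values in all 3 arrays, and such ties can lower that SD. The differences of Timp3, Adam17, Adam22 and Adam23 were of about that size, while those of Adam8 and Adamts1 from AP control were several times larger. Mmp8 and Adamts4 had means of 6.12 and 6.00 over the 3 arrays, under the floor, so that spread does not cover them. That spread is read within the same arrays, so it holds no variation between arrays, RNA preparations, animals or pools. It cannot show that a difference exceeds the noise between arrays.

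Genes that act on or with these enzymes were described by lists. Of 20 measured genes of protease activation and inhibition outside the families, 16 reached the floor in each comparison. In cavtratin 3 were 2-fold or more above AP control and 1 below it, beside 1.36% and 0.0958% of all genes at the floor. In Cav1-shRNA 2 were higher and 1 was lower, beside 0.341% and 0.122%. Slpi, a leukocyte protease inhibitor, was at 6.40, 10.04 and 8.66 in AP control, cavtratin and Cav1-shRNA, and Thbs1, a matrix protein that binds Mmps, at 7.96, 10.94 and 9.16. Plat, tissue plasminogen activator, was at 8.74, 7.69 and 8.09, lower than AP control in both. Serpinb2, a plasminogen activator inhibitor, was at 6.79, 7.89 and 5.56, higher in one array and lower in the other. Between Cav1-shRNA and cavtratin 4 genes of the list were 2-fold lower in Cav1-shRNA and 0 were higher, beside 0.785% and 0.0349% of all genes at the floor. The 4 genes were Slpi, Thbs1, Serpinb2 and Plaur, the urokinase receptor, which was at 7.03, 7.71 and 6.61 in AP control, cavtratin and Cav1-shRNA. Reck, a membrane-anchored Mmp inhibitor, was at 8.07 in all 3. The list median was 0 in both comparisons.

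The 9 partners of Adam10 and Adam17 differed little. The iRhom gene Rhbdf2, needed to bring Adam17 to the surface, was at 7.33 in AP control and Cav1-shRNA and 7.49 in cavtratin. Tspan14, a tetraspanin of Adam10, was at 7.97 in AP control and 8.22 in the other arrays, the largest difference of the list. Among 9 genes, 0 were 2-fold apart in any comparison.

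Of 25 measured genes whose products are shed by Adam enzymes, 3 in cavtratin and 1 in Cav1-shRNA stood 2-fold or more above AP control, with a median of 0 in each. In these comparisons 23 and 22 of the 25 reached the floor, and 1.36% and 0.341% of all genes at the floor were that much higher. Tnfrsf1b, a tumor necrosis factor receptor, was at 6.99, 9.86 and 8.50 in AP control, cavtratin and Cav1-shRNA. Tnf was at 7.34, 9.38 and 7.87, and Il1r2, a decoy receptor of interleukin-1, at 5.62, 7.91 and 6.47. Vcam1, an adhesion molecule, was lower than AP control in both, at 8.75, 7.83 and 8.05. The enzymes known to shed Tnf and its receptors, Adam17 and Adam10, were within 0.14 of AP control, as given above. RNA values say nothing about shedding itself.

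Among 29 genes of retinal and vascular matrix, the substrates of these families, 0 were 2-fold apart from AP control in either array. Fn1, fibronectin, was at 8.55, 9.11 and 8.82 in AP control, cavtratin and Cav1-shRNA, and Dcn, the proteoglycan decorin, at 6.41, 7.16 and 6.92. Of 22 related metalloproteinases outside the families, such as astacins and Adamts-like proteins, 0 were 2-fold apart, and the largest difference was that of Anpep, an aminopeptidase of myeloid cells, which was 6.39 in AP control and 0.61 higher in both other arrays.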

How the data were processed

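The authors deposited 1 table of 41345 probe sets with 1 value per array, read here as log2 expression. The log base is inferred from the range of the values, 1.88 to 13.4, and no source used here gives the summarisation, normalization or software. Sorted columns differed by at most 0.209. The platform annotation, which can be old, gave 1 symbol to 23521 probe sets, and all 76 members kept their symbol when matched by Entrez identifier to RefSeq (GRCm38.p6). Where a gene had several probe sets, as 6 members did, the one with the highest mean was used. Differences, counts and medians were computed with Python 3.11.15, numpy 2.4.6 and pandas 2.3.3, and the counting was tested on simulated data. With 1 array per group no test was run, and the number of arrays limits the precision.

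Values in all 3 arrays were given, by rule, for members 2-fold apart or with a range of at least 0.5 at the floor, the gene with the highest mean of each subfamily, the Timps and those next to the 2-fold limit; others are given because they are members. Related genes are named where 2-fold apart, and otherwise by the 1 or 2 largest differences of the list; Reck, Vcam1 and the cell markers given singly were chosen after their values were seen. The zinc-site classes of Adam genes come from general knowledge, since no protein sequences were used here. Alternatives were centring, quantile normalization, a loess trend (span 0.3, statsmodels 0.14.6), averaging a gene's probe sets, other floors and other folds. The members and lists were chosen with earlier results of these data known.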

Additional observations from a re-analysis of the deposited data

How the results depend on the processing

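No paired analysis was possible because each group holds 1 array. The count of members 2-fold apart in cavtratin against AP control, 2, was 2 under centring, quantile normalization, loess, the mean of all probe sets and no floor. It was 0 with the floor at the 75th percentile (8.20), 5 at 1.5-fold and 1 at 3-fold. The count of 0 for Cav1-shRNA against AP control became 4 at 1.5-fold, and that of 0 for Cav1-shRNA against cavtratin became 2 at 1.5-fold. Under the other alternatives named here both stayed at 0. Centring adds 0.058 to every difference of Cav1-shRNA from AP control and 0.0067 to every difference of cavtratin from it. Equal values thus become positive. The counts of Adamts and of testis and epididymis Adam genes above AP control therefore hold for the deposited values only. Of 111 differences of 37 members, those that turned sign under a scaling were 3 with centring, 2 with quantile normalization and 3 with loess, all under 0.04 in size, in Adam1b, Adam19, Mmp24 and Adamts4. The mean of both probe sets gave 0.17 for Adam19 in cavtratin against AP control.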
